A study of Mus musculus with 9 samples.

Results

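The miR-29 family was represented by 4 of the 358 miRNAs measured in mouse epididymosomes, the small vesicles that the epididymis releases into its lumen and that meet spermatozoa on their way through the duct. The members were taken by name, as every row beginning with miR-29a, miR-29b or miR-29c, on either arm of the hairpin. They comprised 3 guide strands, miR-29a-3p, miR-29b-3p and miR-29c-3p, and a single passenger strand, miR-29a-5p. The passenger strands of the miR-29b and miR-29c hairpins were not analysed here. The vesicles came from male Swiss mice aged 8 weeks, with no treatment or allele that differed between groups, and were collected from 3 segments of the duct, the proximal caput, then the corpus and last the distal cauda, where spermatozoa are stored. Each segment was represented by 3 small RNA libraries, and each library was made from RNA pooled from several mice after the vasculature had been perfused and the vesicles separated on a density gradient. A replicate was therefore a pool and not an animal, and a p-value measures the spread between pools.

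A miRNA guides Argonaute proteins to messenger RNAs that pair with its seed, the bases 2 to 8 from its 5′ end, and lowers the output of those messages. One arm of the hairpin, the guide, is usually kept, and the other, the passenger, is mostly degraded. The miR-29 guides are known for targeting collagens, elastin and other matrix genes, and for targeting the DNA methyltransferases Dnmt3a and Dnmt3b together with members of the TET family. They are made from 4 hairpins in 2 clusters on different chromosomes.

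The mature sequences of the 4 members are shown because the guides can be told apart by a few bases only, while all of the results below compare them. They are those of RefSeq on GRCm38.p6, written 5′ to 3′, with the seed in capitals.
miR-29a-3p: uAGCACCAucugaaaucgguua
miR-29b-3p: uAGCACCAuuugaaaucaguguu
miR-29c-3p: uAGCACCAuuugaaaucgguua
miR-29a-5p: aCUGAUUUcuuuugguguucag

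The 3 guides share the seed AGCACCA. Of the 299 miRNAs in the table that had a RefSeq sequence, these 3 alone carried it at bases 2 to 8, a share of 1.00%. With positions counted from 1 at the 5′ end, miR-29c-3p differed from miR-29a-3p by a single substitution, C10U, over 22 bases. miR-29b-3p differed from miR-29a-3p by C10U, G18A, U21G and A22U and was 1 base longer. It differed from miR-29c-3p by G18A, U21G and A22U. The last 6 bases of miR-29b-3p, AGUGUU, are known as an element linked to nuclear import of this member, and no other of the 299 sequences ended in them (0.334%). Anywhere in the sequence, on the strand of the miRNA, AGUGUU was found in 4 of the 299 (1.34%), which were miR-141-5p, miR-142a-3p, miR-199a-5p and miR-29b-3p. The mismatches allowed when reads were assigned to miRNAs are not given in the sources used here. Reads of miR-29a-3p and miR-29c-3p that carry a sequencing error could therefore have been split between the pair. miR-29c-3p and miR-29b-3p share their first 17 bases, so reads that end early hold fewer of the bases in which this pair differs.

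The hairpins of the clusters are shown because they decide which members can be traced to a single locus. The mature arms that were measured are in capitals.
Mir29a: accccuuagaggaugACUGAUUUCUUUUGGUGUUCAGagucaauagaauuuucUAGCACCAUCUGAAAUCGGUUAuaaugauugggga
Mir29b-1: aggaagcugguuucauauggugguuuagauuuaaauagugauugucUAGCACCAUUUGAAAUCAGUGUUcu
Mir29b-2: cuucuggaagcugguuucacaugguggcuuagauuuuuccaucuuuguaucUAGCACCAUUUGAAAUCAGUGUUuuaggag
Mir29c: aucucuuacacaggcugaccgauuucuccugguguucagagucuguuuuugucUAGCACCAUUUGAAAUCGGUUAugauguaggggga

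Mir29a lies at chr6:31062660-31062747 and Mir29b-1 at chr6:31063023-31063093, both on the minus strand of GRCm38, with 275 bases between them. Mir29a is intergenic, 345 bases from the long non-coding RNA Gm27019. That gene spans 31063092 to 31063495 on the same strand. Mir29b-1, which reaches 31063093, thus overlaps its exon only at the edge of the hairpin. Mir29b-2 at chr1:195037040-195037120 and Mir29c at chr1:195037547-195037634 lie on the plus strand with 426 bases between them. Both fall in an exon of the processed transcript A330023F24Rik on the same strand and overlap an exon of Cd46 on the opposite strand. The mature miR-29b-3p is identical in the hairpins of both clusters, so its level is the sum of both loci, whereas miR-29a-3p and miR-29c-3p each have 1 hairpin.

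The guide of the chromosome 6 cluster, miR-29a-3p, was the main member in all 9 libraries. Levels are in CPM, the reads counted on a miRNA after each library was brought to one common total. Values between members compare molecules of nearly equal length but different sequence. Whether the members were recovered equally well in the libraries was not tested, so differences between members are differences in reads. In caput epididymosomes miR-29a-3p stood at 2197, 1119 and 2833 CPM. In the corpus it stood at 3394, 3916 and 3343 CPM, and in the cauda at 2913, 4337 and 3896 CPM. Every caput library was below every corpus and every cauda library, and corpus and cauda overlapped. The segment means were 2050 ± 867 CPM for the caput pools, 3551 ± 317 CPM for the corpus pools and 3715 ± 729 CPM for the cauda pools (SD, n = 3). Its mean over all libraries ranked 24th of the 358 miRNAs, with ranks of 20 to 33 in single libraries.

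The chromosome 1 guide miR-29c-3p came next. It was measured at 302, 110 and 374 CPM for the caput pools, 269, 323 and 220 CPM for the corpus pools and 277, 330 and 286 CPM for the cauda pools. The 3 segments overlapped, with both the lowest and the highest value in the caput. The means were 262 ± 136, 271 ± 51.5 and 298 ± 28.5 CPM (SD, n = 3), and its rank was 77 to 107.

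The guide shared by both clusters, miR-29b-3p, was lower again. It was measured at 120, 37.0 and 166 CPM for the caput pools, 172, 134 and 139 CPM for the corpus pools and 144, 194 and 156 CPM for the cauda pools. Here too the segments overlapped. The means were 108 ± 65.5, 149 ± 20.3 and 165 ± 26.3 CPM (SD, n = 3), and the rank was 108 to 143. The sum over 2 loci did not bring miR-29b-3p to the level of the single-locus miR-29c-3p in any library, the latter being between 1.57 and 2.98 times higher.

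The passenger strand miR-29a-5p was the least abundant member. Its values were 8.93, 1.45 and 12.2 CPM for the caput pools, 9.69, 7.44 and 5.17 CPM for the corpus pools and 12.99, 13.3 and 16.4 CPM for the cauda pools. All cauda libraries lay above all caput and corpus libraries. These levels rested on 101, 12 and 103 reads for the caput pools, 60, 19 and 8 for the corpus pools and 26, 29 and 97 for the cauda pools. The number of reads on miRNAs in a library lay between 1548581 and 11306605, so that a count of 3 reads, the limit that a count of 0 allows, corresponded to 0.265 to 1.94 CPM. This limit and the intervals below cover counting error only.

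**Figure D1:**
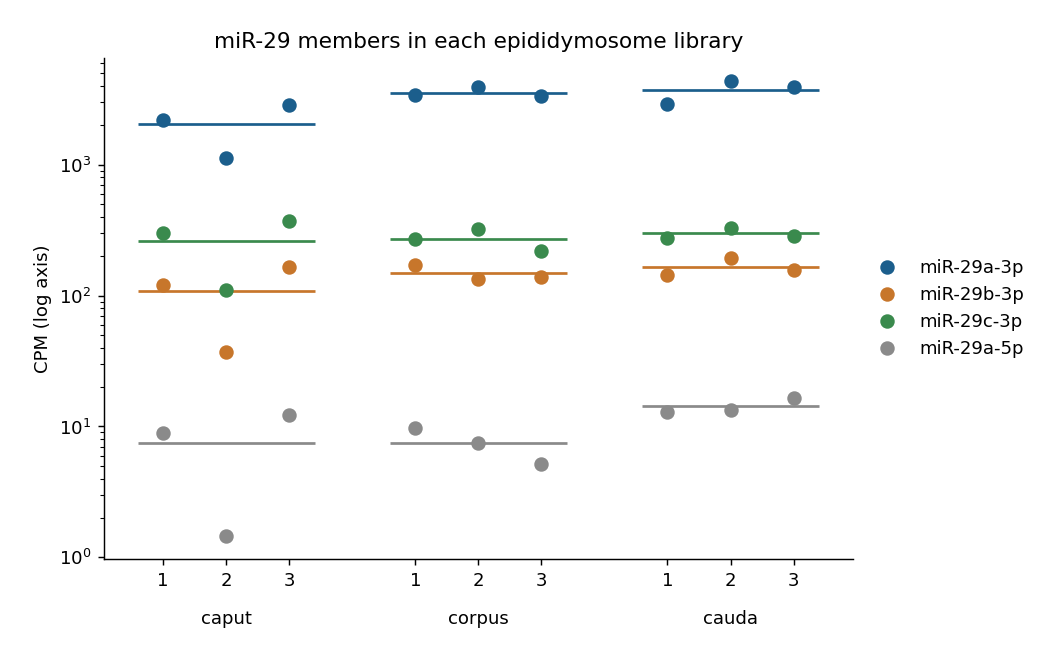
CPM of the 4 miR-29 members on a log axis in each library, with replicates 1 to 3 of the caput, corpus and cauda along the x axis and a horizontal line at the mean of each segment. The order miR-29a-3p, miR-29c-3p, miR-29b-3p, miR-29a-5p held in all 9 libraries, and caput replicate 2 was the lowest library for every member.

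The order of the members was the same in each of the 9 libraries. miR-29a-3p exceeded miR-29c-3p by 7.29 to 15.2 times and miR-29b-3p by 17.0 to 30.3 times. Together the 3 guides took between 0.127% and 0.486% of the miRNA reads of a library. Of these guide reads miR-29a-3p held 83.9% to 90.3%, miR-29c-3p 5.95% to 11.5% and miR-29b-3p 2.92% to 4.93%.

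Caput replicate 2 stood apart for the whole family. It gave the lowest value of all 9 libraries for each of the 4 members, between 1.45 CPM for miR-29a-5p and 1119 CPM for miR-29a-3p. In this library miR-10a and miR-10b, which lie in the Hox gene clusters, together took 71.3% of all miRNA reads, against 50.5% to 63.2% in the other caput libraries, 50.3% to 53.2% in the corpus and 33.2% to 34.5% in the cauda. The part of this share in the low miR-29 values was not tested. Each comparison is also given with TMM normalization, a scaling set by the typical miRNA after the most extreme ones are trimmed. The TMM factors were 0.754, 0.478 and 1.16 for the caput pools, 1.08 to 1.14 for the corpus pools and 1.08 to 1.29 for the cauda pools, and a factor below 1 raises the values of a library.

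Differential accumulation between segments was tested with limma on log2(CPM + 1) over all miRNAs, and a miRNA was called at a Benjamini-Hochberg adjusted p under 0.05 with a change of at least 2-fold. From caput to corpus, 0 of the 3 members tested were called, where the share over all 321 miRNAs tested was 22.4%. limma-voom called 0 as well, and 1 of the 3, miR-29a-3p, had an unadjusted p under 0.05, against 37.1% of all tested. miR-29a-3p differed by 0.89 (SE 0.35) on the log2 scale, with an unadjusted p of 0.023 and a limma adjusted p of 0.082. The difference was 0.70 (SE 0.49) for miR-29b-3p and 0.21 (SE 0.45) for miR-29c-3p, with limma adjusted p-values of 0.32 and 0.74. Libraries of the 2 segments did not overlap for 1 of the 3, miR-29a-3p, against 34.9% of all tested. miR-29a-5p had a mean under 10 CPM in both segments and was not tested. The median difference of all tested miRNAs was 0.47 on this scale.

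From corpus to cauda, 0 of 4 members were called, against 19.0% of 342 miRNAs, and limma-voom called 0 as well. The guides differed by 0.05 for miR-29a-3p, 0.14 for miR-29b-3p and 0.15 for miR-29c-3p, with limma adjusted p-values of 0.94, 0.86 and 0.85. The 95% interval of miR-29a-3p ran from -0.70 to 0.80, so that changes within these bounds could not be told from none. The passenger miR-29a-5p differed by 0.88 (SE 0.57, limma adjusted p 0.31). It was the 1 member of 4 whose libraries did not overlap, against 46.2% of all tested. At an unadjusted p under 0.05 the number of members was also 0 in this comparison, against 32.5% of all tested.

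From caput to cauda, 0 of 4 members were called, against 49.0% of 349 miRNAs, and limma-voom called 0 as well. At an unadjusted p under 0.05 the number was 1 of 4, against 58.5% of all tested. miR-29a-3p was higher in the cauda by 0.94 (SE 0.35) on the log2 scale, a 1.92-fold difference. Its limma adjusted p of 0.036 passed the threshold, as did that of 51.3% of all miRNAs at any fold, but the change fell short of 2-fold. miR-29a-5p differed by 1.15 (SE 0.57, limma adjusted p 0.099), miR-29b-3p by 0.84 (SE 0.49, limma adjusted p 0.16) and miR-29c-3p by 0.36 (SE 0.45, limma adjusted p 0.53). The libraries did not overlap for 2 of 4 members, miR-29a-3p and miR-29a-5p, against 54.2% of all tested. The median difference of all tested miRNAs was 0.81, close to those of miR-29a-3p and miR-29b-3p.

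**Figure D2:**
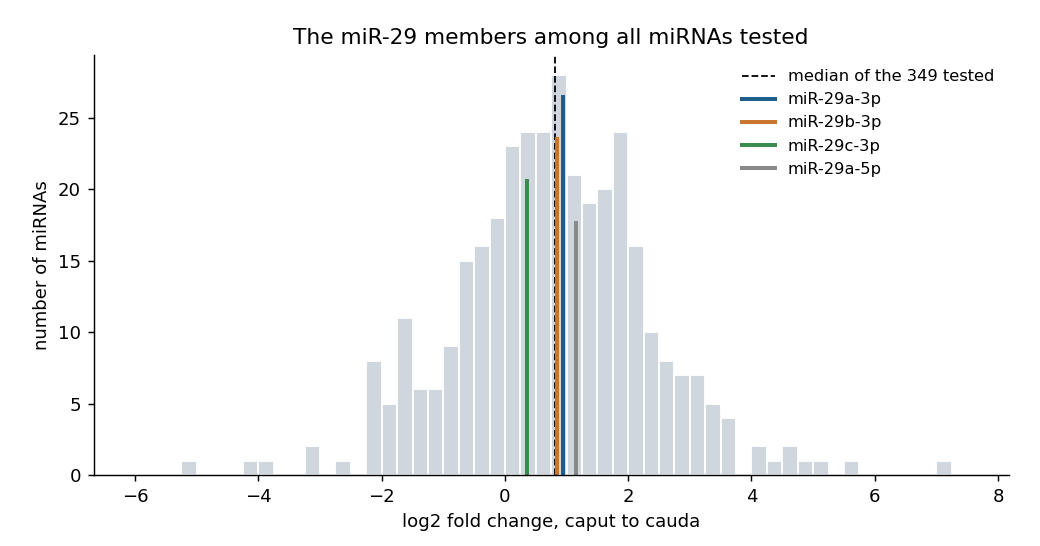
Histogram of the log2 fold change from caput to cauda for the 349 miRNAs tested (x axis, on log2(CPM + 1); y axis, number of miRNAs), with the 4 miR-29 members as coloured lines and the median of all as a dashed line. The members lie between 0.36 for miR-29c-3p and 1.15 for miR-29a-5p, around the median of 0.81.

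The calls depended on which libraries entered the fit. Without caput replicate 3, the caput library with the highest values, miR-29a-3p was called from caput to corpus at 1.18 on the log2 scale (limma adjusted p 0.016). In the same fit 3 members were called from caput to cauda, with differences of 1.22 for miR-29a-3p (limma adjusted p 0.0068), 1.28 for miR-29b-3p (0.032) and 1.62 for miR-29a-5p (0.027). That fit called 102 of all 306 miRNAs tested from caput to corpus and 202 of 335 from caput to cauda. The median difference of all tested was 0.82 and 1.14. Without caput replicate 1 and without cauda replicate 1, miR-29a-3p just passed 2-fold from caput to cauda, at 1.04 and 1.11 with limma adjusted p-values of 0.049 and 0.039. Of all miRNAs, 138 of 350 and 151 of 346 were called in that comparison by these fits. Without caput replicate 2, its difference from caput to cauda was 0.55 (limma adjusted p 0.079) and that of miR-29b-3p was 0.21, while miR-29c-3p changed sign to -0.18. The adjusted p of miR-29a-3p from caput to cauda was also above 0.05 without cauda replicate 2 (0.14), cauda replicate 3 (0.084), corpus replicate 1 (0.052) and corpus replicate 2 (0.0504), and when only the 6 libraries of the comparison were fitted (0.072).

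With TMM normalization the caput values of miR-29a-3p drew closer together. It then stood at 2916, 2341 and 2433 scaled CPM for the caput pools, 3142, 3432 and 2959 for the corpus pools and 2689, 3530 and 3027 for the cauda pools. The caput lay below the corpus in every library, by a narrow margin, and overlapped with the cauda. The coefficient of variation of miR-29a-3p in the caput was 12.05% on this scale, against 42.3% for CPM. For miR-29b-3p, miR-29c-3p and miR-29a-5p it was 34.3%, 26.7% and 56.1% with TMM, against 60.8%, 52.0% and 73.2% for CPM. Caput replicate 2 stayed the lowest caput library for every member. For miR-29b-3p it was at 77.4 scaled CPM, where caput replicates 1 and 3 were at 159 and 143. From caput to cauda the differences were 0.26 (SE 0.19, limma adjusted p 0.26) for miR-29a-3p, 0.17 for miR-29b-3p, 0.61 for miR-29a-5p and -0.32 for miR-29c-3p, and 0 members were called. miR-29c-3p thus had the opposite sign under the 2 scalings, also from caput to corpus, where it was -0.37 with TMM. The median of all miRNAs tested moved from 0.81 to 0.07 from caput to cauda, and from 0.47 to -0.10 from caput to corpus. Over the whole table the calls from caput to cauda were 135 higher and 36 lower by library size and 84 higher and 73 lower with TMM, and those from caput to corpus 61 and 11 against 42 and 49.

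**Figure D3:**
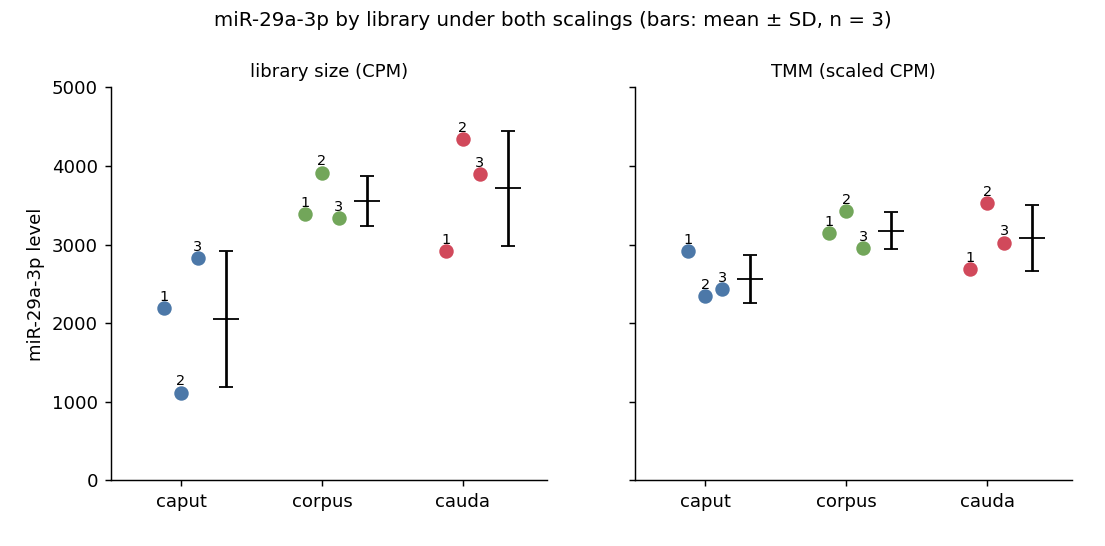
Level of miR-29a-3p in each library by segment, as CPM (left) and as TMM-scaled CPM (right), with the replicate number above each point and bars for mean ± SD of 3 libraries. The caput libraries span 1119 to 2833 CPM on the left and 2341 to 2916 scaled CPM on the right.

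**Figure D4:**
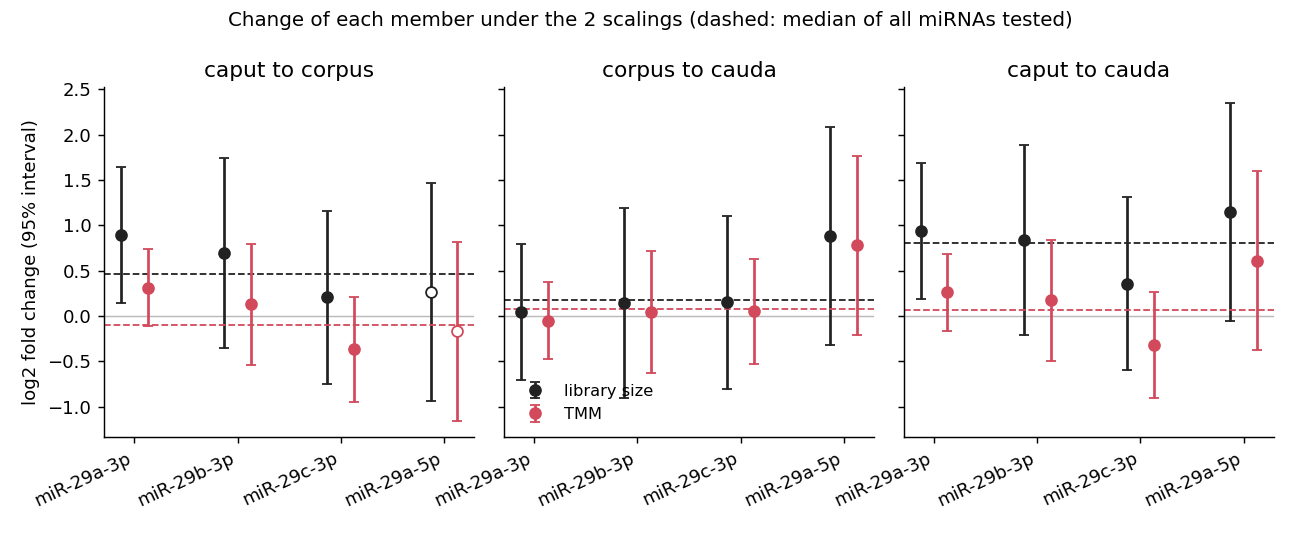
Log2 fold change of each member in the 3 comparisons with its 95% interval, by library size (black) and with TMM normalization (red). Dashed lines give the median of all miRNAs tested under the same scaling, and open points mark a member that was not tested. Intervals include 0 in all cases but miR-29a-3p by library size from caput to corpus and from caput to cauda.

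Set against the table as a whole, the segment means of the guides varied less than those of the median miRNA. The ratios below were ranked among all 358 miRNAs, also those under 10 CPM, and leave out the spread between pools. For miR-29c-3p in the caput the coefficient of variation was 52.0%. The highest segment mean of miR-29c-3p was 1.14 times the lowest by library size (with 1 CPM added to each), and only 10 of 358 miRNAs (2.79%) had a smaller ratio, the median being 2.48. For miR-29b-3p the ratio was 1.52, with 16.2% of miRNAs below it, and for miR-29a-3p 1.81, with 30.7% below it. With TMM these ratios were 1.31, 1.08 and 1.24, with 10.3%, 1.68% and 8.10% of miRNAs below them. Which guide had the smallest ratio thus depended on the scaling, whereas each of the 3 was below the median of the table under both.

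Ratios between members of one library do not depend on the scaling. The ratio of miR-29a-3p to miR-29c-3p was 7.29, 10.2 and 7.57 for the caput pools, 12.6, 12.1 and 15.2 for the corpus pools and 10.5, 13.1 and 13.6 for the cauda pools. All caput libraries were below all others, although caput replicate 2 at 10.2 was close to cauda replicate 1 at 10.5. The means were 8.34 ± 1.58, 13.3 ± 1.65 and 12.4 ± 1.67 (SD, n = 3). On the log2 scale the corpus was 0.68 and the cauda 0.58 above the caput. An exact permutation test over all 280 divisions of the libraries gave p = 0.025, and p = 0.075 after Benjamini-Hochberg adjustment over the 3 ratios, so the difference did not pass the correction. The cauda was above the caput by 0.49 to 0.73 with each library left out in turn.

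The other ratios were less clear. miR-29b-3p relative to miR-29c-3p was 0.398, 0.336 and 0.445 for the caput pools, 0.638, 0.416 and 0.633 for the corpus pools and 0.519, 0.587 and 0.543 for the cauda pools. All caput libraries were below all cauda libraries and overlapped with the corpus, and the exact permutation test gave p = 0.11 (adjusted p = 0.17). Without corpus replicate 2, the corpus library at 0.416, the adjusted exact permutation p was 0.032. The ratio of miR-29a-3p to miR-29b-3p had means of 21.9 ± 7.30, 24.3 ± 4.70 and 22.5 ± 2.41 in the caput, corpus and cauda (SD, n = 3), and overlapped between all segments (exact permutation p = 0.77). Compared in pairs of segments, 3 of the 9 comparisons of ratios reached the smallest p that 3 against 3 libraries allow, 0.1, and after adjustment over the 9 comparisons their exact permutation p was 0.3.

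**Figure D5:**
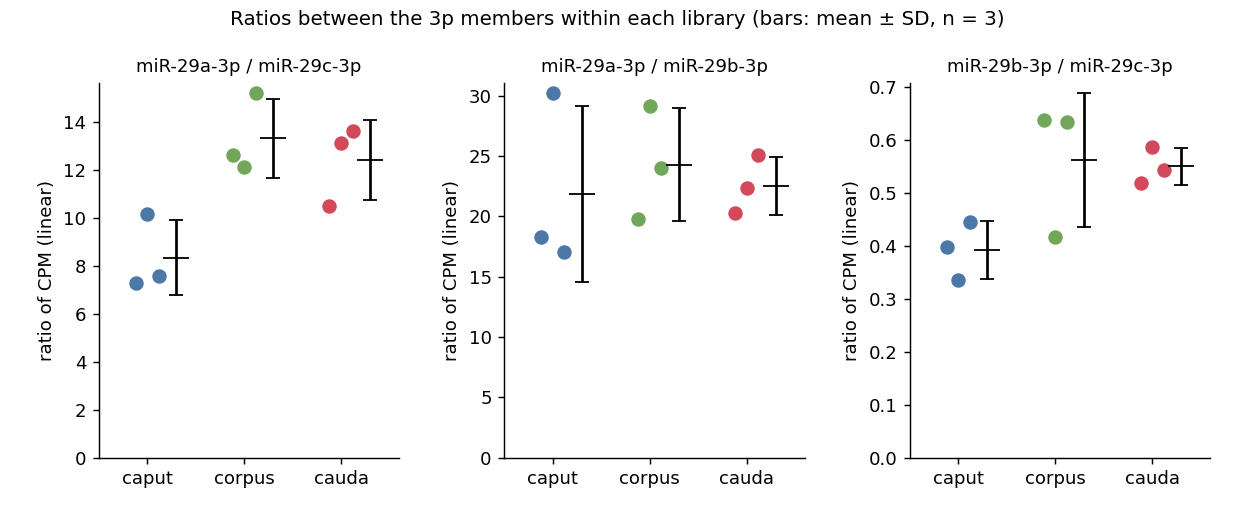
Ratio of CPM between the 3p members within each library, by segment, on linear axes starting at 0, with points for libraries and bars for mean ± SD of 3 libraries. For miR-29a-3p to miR-29c-3p the caput libraries lie between 7.29 and 10.2 and the others between 10.5 and 15.2, whereas miR-29a-3p to miR-29b-3p overlaps in all segments.

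As shares of the guide reads, miR-29c-3p held 10.4 ± 1.51% for the caput pools, 6.79 ± 0.75% for the corpus pools and 7.24 ± 0.94% for the cauda pools (SD, n = 3). miR-29a-3p held 85.4 ± 2.56%, 89.4 ± 0.90% and 88.8 ± 1.28%. The share of miR-29b-3p, at 4.15 ± 1.07%, 3.77 ± 0.70% and 3.96 ± 0.37%, differed by less than its spread. Less of a member per vesicle and fewer of the vesicles that carry it cannot be told apart in these pools.

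The passenger strand made up a small part of the reads of the Mir29a hairpin in every library. It held 0.405%, 0.129% and 0.428% of them for the caput pools, 0.285%, 0.190% and 0.154% for the corpus pools and 0.444%, 0.305% and 0.420% for the cauda pools. Segments overlapped, with the exception that each corpus library was below each cauda library. The exact 95% binomial interval was widest in cauda replicate 1, from 0.290% to 0.650%, and ran from 0.0669% to 0.226% in caput replicate 2. The log2 of the 5p level over the 3p level differed by 0.31 (SE 0.43) from caput to cauda. Its sign was not stable, being -0.13 without caput replicate 2 and -0.21 with a pseudocount of 5 CPM, and 0.55 without caput replicate 3. Its adjusted p was not computed in the test of the other hairpins, because the mean of miR-29a-5p, 9.73 CPM, was just under the minimum of 10 CPM. When all 87 pairs of arms were tested, the limma adjusted p was 0.59.

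The miRNAs whose pattern was most like that of each guide over the 9 libraries were found by Pearson's r of log2(CPM + 1), given as a description. For miR-29a-3p they were miR-130a-3p (r = 0.970), let-7j (0.955) and miR-101a-3p (0.947). For miR-29b-3p they were miR-301a-3p (0.976), miR-148b-5p (0.955) and miR-26b-5p (0.951). For miR-29c-3p they were miR-181b-5p (0.938), miR-181d-5p (0.930) and let-7a-5p (0.921). Family members were left out of this ranking. Between guides r was 0.917 for miR-29a-3p with miR-29b-3p, 0.906 for miR-29b-3p with miR-29c-3p and 0.789 for miR-29a-3p with miR-29c-3p. By rank the likeness was weaker, with Spearman's rho of 0.65 to 0.88 for the miRNAs named beside miR-29a-3p, 0.35 to 0.73 beside miR-29b-3p and 0.75 to 0.87 beside miR-29c-3p, and of 0.60, 0.43 and 0.37 between the guides in the order above. All of these values share the low levels of caput replicate 2. Of these 9 most similar miRNAs, 2 were called with a higher level in cauda than in caput vesicles, where 38.7% of all miRNAs tested were. They were miR-130a-3p at 1.04 (SE 0.39, limma adjusted p 0.035) and miR-101a-3p at 1.33 (SE 0.43, limma adjusted p 0.017). The 9 were chosen by likeness over the same libraries, so these calls are not independent of the miR-29 values.

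Other miRNAs linked to the known targets of miR-29 were followed as lists. These lists share members with each other, such as miR-101a-3p. They also share members with the cell type lists below, such as miR-133a-3p and miR-143-3p, so the counts are not independent. Of 12 miRNAs linked to the extracellular matrix, 3 rose and 0 fell from caput to cauda, where 38.7% of all miRNAs rose and 10.3% fell. From caput to corpus 2 rose and 1 fell, where 19.0% of all rose and 3.43% fell, and from corpus to cauda 1 rose and 0 fell, where 19.0% of all were called in either direction. Their median difference from caput to cauda was 0.71, beside 0.81 for all miRNAs. With TMM 2 rose and 2 fell in that comparison, where 24.0% of all rose and 20.9% fell. From caput to corpus 0 rose and 2 fell with TMM, where 42 of all 321 rose and 49 fell. By library size the largest rise from caput to cauda was that of miR-133a-3p, from a mean of 118 to 2438 CPM (log2 4.39, SE 0.50, limma adjusted p 3.9e-06). It is a miRNA of striated muscle also known to target collagen and connective tissue growth factor.

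Of 9 miRNAs known to target DNA methyltransferases or the Polycomb methyltransferase EZH2, 4 rose and 1 fell from caput to cauda, with a median of 0.68. From caput to corpus 3 rose and 0 fell, where 19.0% of all rose and 3.43% fell. From corpus to cauda 1 rose and 1 fell, where 19.0% of all were called in either direction. miR-143-3p, a smooth muscle miRNA that is known to target Dnmt3a, rose by 2.37 (SE 0.22, limma adjusted p 6.5e-07). miR-148a-3p, which is known to target Dnmt1, fell by 1.62 (SE 0.28, limma adjusted p 0.00022) from 43757 to 13581 CPM. The shares called in both lists are below the 49.0% of all miRNAs for the first, at 3 of 12, and near it for the second, at 5 of 9. With TMM 3 miRNAs of the second list rose and 1 fell from caput to cauda, where 24.0% of all rose and 20.9% fell. Their median was 0.01, beside 0.07 for all miRNAs. From caput to corpus 1 rose and 0 fell with TMM, where 42 of all 321 rose and 49 fell.

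Markers of other cell types moved between the same segments, where 38.7% of all miRNAs tested rose and 10.3% fell from caput to cauda. From caput to cauda 4 of 4 smooth muscle miRNAs rose, with miR-145a-3p foremost at 2.77, as did 5 of 5 striated muscle miRNAs, led by miR-133b-3p at 5.08, and 5 of 5 red blood cell miRNAs, led by miR-486a-3p at 3.69 on the log2 scale. Of the leukocyte miRNAs 3 of 5 rose, the largest being miR-155-5p at 2.16, and of the mesenchymal miRNAs 3 of 6, the largest being miR-199b-5p at 2.02. The red blood cell rows miR-486a-5p and miR-486b-5p had nearly equal values, as had the mesenchymal rows miR-199a-3p and miR-199b-3p. Such rows are not independent markers. Of the epithelial miRNAs 1 of 6 rose, miR-141-3p at 1.16, and none of any list fell. With TMM normalization 2, 5, 3, 3, 3 and 0 miRNAs of these lists rose, in the order above, and 1 epithelial miRNA fell, where 24.0% of all rose and 20.9% fell. Their part in the miR-29 values was not tested.

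The summed level of the smooth muscle list was 50115 to 88995 CPM in the caput libraries, 88423 to 121412 in the corpus and 291676 to 354786 in the cauda. That of the striated muscle list was 55.5 to 197, 121 to 167 and 1412 to 4166 CPM, and that of the red blood cell list 223 to 848, 390 to 1106 and 3030 to 4365 CPM. These lists were highest in the cauda. The mesenchymal list was lowest in the caput, at 1595 to 4950 CPM, followed by 5546 to 8300 CPM in the corpus and 7944 to 12182 CPM in the cauda. In this list miR-199a-3p and miR-199b-3p had nearly equal values, with caput means of 1375 and 1360 CPM. So had miR-486a-5p and miR-486b-5p of the red blood cell list, at 231 and 230 CPM. The sums of these lists can therefore hold reads that were counted repeatedly. The epithelial list was at 21864 to 33624, 73871 to 85320.7 and 46003 to 62093 CPM, and the leukocyte list at 231 to 530, 515 to 1149 and 392 to 1601 CPM. Caput replicate 2 was the lowest library for the smooth muscle, striated muscle, leukocyte, mesenchymal and epithelial lists, as it was for the miR-29 members. Of the markers in the table, 2 were at 0 in a library, the striated muscle miRNAs miR-133a-5p in 1 caput and 1 corpus library and miR-208b-3p in 1 caput library.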

How the data were processed

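The authors sequenced small RNA on an Illumina HiSeq-2000, removed contaminants, counted reads on known miRNAs with miRDeep2 and normalised for library size. The processing notes name Bowtie 1.1.1 and CASAVA 1.8.2; genome build and miRBase release are not given in the sources used here. The deposited values are CPM of 358 miRNAs in 9 libraries, grouped by their labels. They were whole multiples of 1 read within 0.01 read, which gave totals of 1548581 to 11306605 reads on miRNAs.

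Segments were compared with limma 3.58 in R 4.3 (lmFit and eBayes with trend) on log2(CPM + 1), a scale that understates changes of low miRNAs. All 9 libraries entered with segment as the only factor. A miRNA was tested where either segment of a comparison averaged 10 CPM or more, with Benjamini-Hochberg adjustment over all of them. Planned tests on raw counts were not made, since the values are CPM; limma-voom was run on the recovered reads. Guide ratios (pseudocount 0.5 CPM for tests) were compared by the F statistic over all 280 divisions, and pairs of segments by their difference in means (two-sided). Scripts were tested on simulated data.

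Every miR-29 row is named, with the 3 most similar miRNAs of each guide and, of each list, the called miRNAs with the largest rise and fall from caput to cauda. Other markers at 0 and the holders of the 3′ letters were named after their values were seen. Members, lists, tests and alternatives were chosen with earlier results of these data known. Listed miRNAs miR-206-3p, miR-144-5p and miR-486b-3p were not analysed here. Sequences are RefSeq and gene models GENCODE, both for GRCm38. Tables and plots used Python 3.11, numpy 2.4, pandas 2.3 and matplotlib 3.10. Alternatives were TMM and median-of-ratios scaling, other pseudocounts and filters, voom, a replicate block, only the libraries compared, and leaving out each library.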

Additional observations from a re-analysis of the deposited data

How the results depend on the processing

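Over the 19 alternatives the number of members called was 0 except where a library was left out, when it ran from 0 to 1 from caput to corpus and from 0 to 3 from caput to cauda. When a library was left out, the number of all miRNAs called ran from 46 to 102 from caput to corpus. It ran from 32 to 83 from corpus to cauda and from 132 to 202 from caput to cauda. With a filter of 50 CPM it was 95 from caput to cauda, out of 212 miRNAs tested where the main fit tested 349. limma-voom called 71, 46 and 172 miRNAs in the 3 comparisons, against 72, 65 and 171.

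Directions reversed for members that were not called. From caput to corpus miR-29a-5p, which the main fit did not test, was at 0.26 in that fit. It was -0.17 with TMM, -0.12 with median-of-ratios and -0.48 without caput replicate 2. With TMM, miR-29c-3p was -0.37 from caput to corpus and -0.32 from caput to cauda, and miR-29a-3p -0.051 from corpus to cauda, and these 3 values were the same in the replicate block with TMM. With median-of-ratios they were -0.31, -0.36 and -0.15, and miR-29b-3p was -0.057 and miR-29c-3p -0.050 from corpus to cauda. With a library left out, miR-29c-3p ran from -0.33 to 0.55 from caput to corpus and from -0.18 to 0.70 from caput to cauda, and miR-29a-3p from -0.072 to 0.21 from corpus to cauda. The log2 ratio of cauda to caput ran from -0.059 to 0.35 for miR-29a-3p to miR-29b-3p and from 0.38 to 0.58 for miR-29b-3p to miR-29c-3p. The log2 arm ratio of miR-29a ran from -0.13 to 0.55 with a library left out and was -0.21 with a pseudocount of 5 CPM. The cause was not tested.

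Libraries of one number shared no stated origin, and their deviations correlated between -0.21 and 0.41, with 6 of 9 pairs over 0.1. The replicate block left 0 members called in each comparison, with 83, 73 and 180 of all miRNAs called, and gave an exact permutation p of 0.056 for miR-29a-3p to miR-29c-3p, the smallest possible being 0.028. Without the block 72, 65 and 171 of all miRNAs were called. With it the exact permutation p was 0.69 for miR-29a-3p to miR-29b-3p and 0.19 for miR-29b-3p to miR-29c-3p. The 2 planned edgeR alternatives on raw counts were not run, since the values are CPM. Depth limits miR-29a-5p, with 8 to 103 reads a library.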
